A study of Mus musculus with 6 samples.

Results

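The Bcl2 family decides whether the outer membrane of a mitochondrion is permeabilised, which is the committing step of intrinsic apoptosis. The genes followed here in NSC-34 cells were the pro-survival members Bcl2, Bcl2l1 and Mcl1, the effectors Bax and Bak1, and the BH3-only members Bid, Bad, Bbc3, Pmaip1 and Bcl2l11. They were chosen by gene symbol, and all 10 are among the 23038 genes listed for each library. Pro-survival proteins hold the effectors in check. BH3-only proteins relay stress signals by occupying the pro-survival proteins or by engaging the effectors, which then assemble into pores that release cytochrome c. Motor neurons depend on trophic support during development and die by this route when it is withdrawn.

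NSC-34 is a mouse motor neuron-like line, a hybrid of a neuroblastoma and motor neurons of the spinal cord, grown here in DMEM with fetal calf serum. Messenger RNA was sequenced from 3 libraries of cells given control siRNA (siNC) and 3 libraries of cells given siRNA against Qk (siQk), the gene of the Quaking RNA-binding proteins. Per the labels, 3 different siRNAs against Qk were used, and which library received which is not given. The comparison asked how family transcripts stood after Qk depletion.

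Qk itself had 9.67, 8.18 and 14.9 RPKM (reads scaled by exon length and library total) in siNC replicates 1 to 3 and 1.39, 1.71 and 1.10 RPKM in siQk replicates 1 to 3. The siQk mean was 12.8% of the siNC mean, a log2 fold change of -2.997 with an SE of 0.27 and, by edgeR's quasi-likelihood test, an adjusted p of 0.0149. Without siNC replicate 1 the fold change was -3.09 and the adjusted p 0.125. Libraries held 43000503 to 53565950 counts. Of 9 neuronal markers 7 were above 1 RPKM. Among the motor neuron genes of that list, Isl1 had 4.75 to 4.83 RPKM in siNC and 7.80 to 9.63 RPKM in siQk and Slc18a3 had 1.56 to 2.29 RPKM over all libraries, while Chat (at most 0.141 RPKM) and Mnx1 (at most 0.0944 RPKM) were nearly absent. All 5 neuroblastoma markers were above 1 RPKM, and no astrocyte, microglial or fibroblast marker was. Of 2 endothelial markers 1 was, Pecam1, with 3.20 to 4.87 RPKM in siNC and 2.32 to 3.62 RPKM in siQk. The part of the Isl1 and Pecam1 differences in the results below was not tested. The oligodendrocyte genes Mbp, Mog and Mag were at most 0.561 RPKM. On the principal components of log2 CPM (counts scaled to the library total), siQk replicate 2 stood apart on the first, with 41.2% of the variance, and siNC replicate 3 on the second, with 28.9%. Members that turn on either library are given without it below. In bulk RNA, fewer cells of a kind and less RNA per cell cannot be told apart.

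What unites the family is the BH3 motif, a short helix through which members bind each other. The stretches of coding sequence that encode it are shown for the 9 members with measurable RNA, because this is the part of each message that places its protein in the family. A pattern written from known BH3 motifs (leucine, any 2 residues, a hydrophobic residue or alanine, a small residue, aspartate) was found 1 time in each translated coding sequence, and in 8.64% of 21261 mouse coding sequences. Since the pattern was written with the family in mind, a match in each member is no finding. Capitals mark the codons of the pattern, and sequences are from GENCODE release M21 transcripts with GRCm38 coordinates.
Bcl2, chr1:106712575-106712610, minus strand: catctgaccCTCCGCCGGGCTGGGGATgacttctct
Bcl2l1, chr2:152829697-152829732, minus strand: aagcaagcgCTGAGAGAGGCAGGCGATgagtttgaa
Mcl1, chr3:95659427-95659462, plus strand: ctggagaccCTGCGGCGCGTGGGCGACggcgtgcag
Bax, chr7:45465997-45466032, minus strand: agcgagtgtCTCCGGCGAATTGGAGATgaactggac
Bak1, chr17:27022531-27022566, minus strand: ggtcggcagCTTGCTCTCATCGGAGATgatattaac
Bid, chr6:120897289-120897324, minus strand: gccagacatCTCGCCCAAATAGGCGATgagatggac
Bad, chr19:6950783-6950818, plus strand: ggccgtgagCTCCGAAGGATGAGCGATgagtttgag
Bbc3, chr7:16313764-16313799, plus strand: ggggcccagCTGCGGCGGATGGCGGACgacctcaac
Bcl2l11, chr2:128147141-128147176, plus strand: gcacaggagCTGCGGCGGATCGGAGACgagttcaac

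Quaking proteins bind RNA at ACUAAC or ACUAAU, so the representative transcript of each of these members was searched on its sense strand for ACTAAC and ACTAAT. Bcl2l1, Mcl1, Bak1 and Bcl2l11 each held 1 match, in every case ACTAAT in the 3′ UTR, and the other 5 held none. Among 21261 mouse transcripts 43.1% held at least 1 match, so 4 of 9 is close to what transcripts at large hold. The sites are shown with the motif in capitals because they are the matches in these messages to the motif of the depleted protein. A match is a description of these letters, and binding was not measured here.
Bcl2l1, chr2:152781616-152781645, minus strand: ttagcccttttgACTAATtagaaattcagg
Mcl1, chr3:95661452-95661481, plus strand: gacttaaggttcACTAATtagttacaaaac
Bak1, chr17:27020644-27020673, minus strand: agaggctgggccACTAATtcccagaaaact
Bcl2l11, chr2:128162333-128162362, plus strand: atagtccccatcACTAATgtcagaacccag

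Family transcripts spanned a wide range of levels, and in siNC cells the effector Bax and the pro-survival Mcl1 led. The siNC means were 60.8 RPKM for Bax, 34.7 for Mcl1, 17.5 for Bad, 17.2 for Bak1, 8.73 for Bid, 7.21 for Bbc3, 4.82 for Bcl2l1, 2.29 for Bcl2 and 1.18 for Bcl2l11. Bax was above Mcl1, and Mcl1 above Bad, in 6 of 6 libraries. Bad and Bak1 did not hold their order, with Bad higher in 4 of 6 libraries. Bbc3 was above Bcl2l1 in 5 of 6 libraries and Bcl2 above Bcl2l11 in 5 of 6, and every other neighbouring pair kept its order in 6 of 6. Pmaip1, which encodes the BH3-only protein Noxa, had a count of 0 in every library. At these depths 3 counts, about the 95% upper limit for an observed count of 0, would have been 0.0211 to 0.0263 RPKM. That limit is for counting error only. Pmaip1 was 1 of 5050 genes (21.9% of those listed) with no count in any library, so it was not tested and no fold change is given for it.

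**Figure D1:**
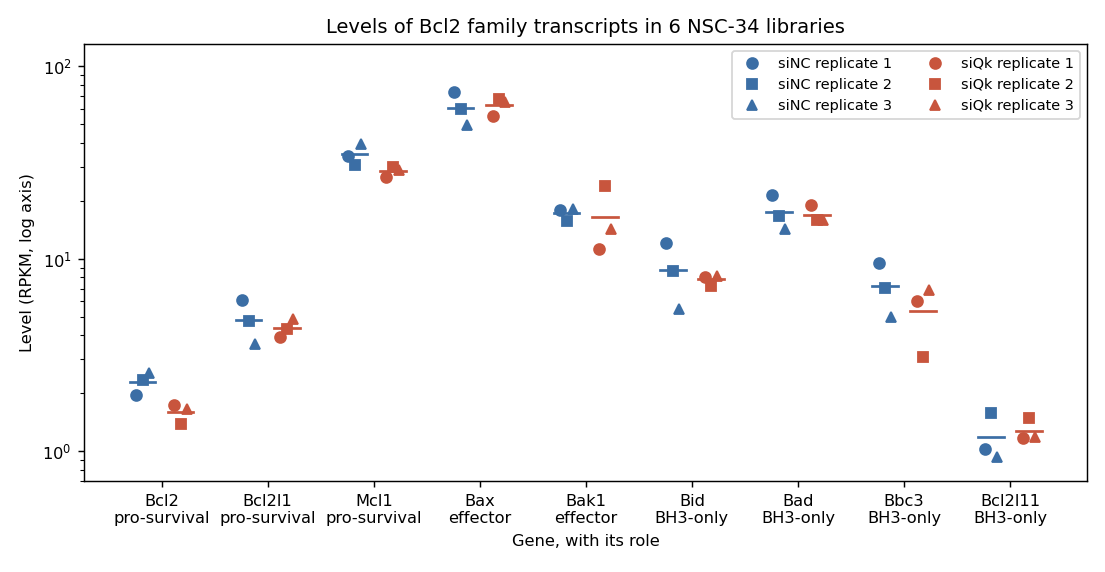
RPKM on a log axis for the 9 Bcl2 family genes with counts, 1 point per library (blue siNC, red siQk, shape by replicate) and a bar at each group mean. The groups are separate for Bcl2 and Mcl1, and the points of the other 7 genes overlap between groups.

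No member was called changed in siQk cells. Of the 10 members 9 passed the filter on low counts, and 0 met the call rule (edgeR quasi-likelihood p under 0.01 and adjusted p under 0.1), against 0.0079% of the 12665 genes tested, a share made by Qk alone. At an unadjusted p under 0.05 there was 1 member, Bcl2, against 2.89% of all genes. Bcl2 and Mcl1 were the 2 members whose siQk libraries all lay below all siNC libraries, against 3.49% of all genes. No member had all siQk libraries above all siNC libraries, against 5.35% of all genes. The log2 fold change was below 0 for 7 members and above 0 for 2, with a median of -0.16 beside 0.0034 over all genes tested. This lean rested on siNC replicate 1, since leaving it out gave 4 members below 0, 5 above and a median of 0.00061. Leaving out any other single library gave 6 to 9 members below 0 and a median of -0.22 to -0.15. The adjusted p was 0.9996 for every member tested. The p-values measure the spread between these libraries, which the labels call biological replicates. Within siQk, differences between siRNAs and between replicates cannot be told apart.

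Among the pro-survival genes, Bcl2 and Mcl1 were lower in every siQk library than in any siNC library and Bcl2l1 was not separated. Gene positions are from GRCm38. Bcl2 (Entrez 12043, chr1:106538178-106714274, minus strand) encodes the founding member of the family, which sits in the mitochondrial and endoplasmic reticulum membranes. It had 1.96, 2.35 and 2.57 RPKM in siNC replicates 1 to 3 and 1.75, 1.38 and 1.67 RPKM in siQk replicates 1 to 3. The lowest siNC library stood above the highest siQk library by a narrow margin, and siQk replicate 2 was the lowest of the 6. The siQk mean was 69.7% of the siNC mean (2.29 ± 0.306 and 1.5996 ± 0.191 RPKM, SD, n = 3 each), and these values rest on 387 to 582 counts per library. The log2 fold change was -0.55 (SE 0.22, 95% interval -1.04 to -0.04, unadjusted p = 0.0357 by edgeR). It did not pass the call rule after adjustment over all genes. The exact two-sided permutation test of the RPKM values gave p = 0.1, the smallest that 3 against 3 libraries allow. Without siNC replicate 3 and siQk replicate 2 together, a choice made once the data had been seen, the log2 fold change was -0.33 (unadjusted p = 0.123 by edgeR).

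Mcl1 (Entrez 17210, chr3:95658788-95663176, plus strand) encodes a short-lived pro-survival protein that cells replace continually. Its level was 34.2, 30.5 and 39.5 RPKM in siNC replicates 1 to 3 and 26.6, 29.9 and 28.7 RPKM in siQk replicates 1 to 3. The gap between siNC replicate 2 and siQk replicate 2 was far smaller than the spread of the siNC libraries. Mean levels were 34.7 ± 4.52 RPKM for siNC against 28.4 ± 1.68 RPKM for siQk (SD, n = 3 each), from 4230 to 6067 counts per library. Mcl1 thus had a log2 fold change of -0.32 (SE 0.16, 95% interval -0.68 to 0.06, unadjusted p = 0.0839 by edgeR). The exact permutation p was 0.1, again the smallest possible. Leaving out siNC replicate 3, the highest library, brought the fold change to -0.19. Scaling RPKM by the TMM factors (edgeR's library scaling) kept the groups of both Bcl2 and Mcl1 apart.

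Bcl2l1 (Entrez 12048, chr2:152780668-152831728, minus strand) encodes Bcl-xL and, by an alternative splice site, the pro-apoptotic Bcl-xS. The values here cover all isoforms together, so the balance between those forms was not measured. Bcl2l1 had 6.09, 4.75 and 3.62 RPKM in siNC replicates 1 to 3 and 3.95, 4.30 and 4.88 RPKM in siQk replicates 1 to 3. The 3 siQk libraries lay within the span of the siNC libraries, whose own highest value was 1.68 times the lowest. Its fold change was -0.16 on the log2 scale (SE 0.22, 95% interval -0.64 to 0.36, unadjusted p = 0.491 by edgeR).

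The effectors showed no common direction. Bax (Entrez 12028, chr7:45461697-45466898, minus strand), which moves from the cytosol to mitochondria when activated, had 73.1, 59.8 and 49.5 RPKM in siNC replicates 1 to 3 and 54.7, 67.3 and 65.2 RPKM in siQk replicates 1 to 3. All siQk values lay inside the siNC range. For Bax the log2 fold change was 0.01 with a 95% interval from -0.38 to 0.43, which places the mean at 0.769 to 1.35 times the siNC level. Bak1 (Entrez 12018, chr17:27019810-27029009, minus strand) encodes the effector that resides on the mitochondrial membrane. It had 17.8, 15.7 and 18.1 RPKM in siNC replicates 1 to 3 and 11.3, 23.8 and 14.3 RPKM in siQk replicates 1 to 3. The siNC libraries were close to each other, while siQk held both the highest and the lowest of the 6 values, 2.12 times apart. For Bak1 the log2 fold change was -0.09 (SE 0.26, 95% interval -0.75 to 0.43), and it was -0.46 without siQk replicate 2 and 0.12 without siQk replicate 1.

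For each BH3-only gene with counts, the span of the siNC libraries was wider than the difference between the group means. Bid (Entrez 12122, chr6:120891930-120916853, minus strand) encodes a protein that caspase-8 cleaves, linking death receptors to mitochondria. It had 12.05, 8.68 and 5.46 RPKM in siNC replicates 1 to 3 and 7.99, 7.24 and 8.18 RPKM in siQk replicates 1 to 3. The siNC libraries differed 2.21-fold while the siQk libraries stayed within 1.13-fold of each other and inside the siNC range. Bad (Entrez 12015, chr19:6941861-6951899, plus strand) encodes a protein that binds Bcl-xL unless survival kinases phosphorylate it and 14-3-3 proteins retain it. It had 21.5, 16.6 and 14.3 RPKM in siNC replicates 1 to 3 and 19.0, 15.9 and 15.9 RPKM in siQk replicates 1 to 3. The log2 fold changes were -0.18 for Bid (SE 0.27, 95% interval -0.73 to 0.50) and -0.07 for Bad (SE 0.20, 95% interval -0.51 to 0.40).

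Bbc3 (Entrez 170770, chr7:16308393-16318205, plus strand) encodes Puma, the p53-inducible BH3-only protein. It had 9.54, 7.08 and 5.002 RPKM in siNC replicates 1 to 3 and 6.05, 3.10 and 6.86 RPKM in siQk replicates 1 to 3. Of the siQk libraries only replicate 2 lay below the siNC range, and it was lower than siQk replicate 3 by 2.21-fold. The log2 fold change was -0.45 (SE 0.34, 95% interval -1.25 to 0.28, unadjusted p = 0.206 by edgeR), and -0.18 without siQk replicate 2. Bcl2l11 (Entrez 12125, chr2:128126038-128162547, plus strand) encodes Bim, which in neurons is induced through JNK and FoxO when trophic factors are lost. It had 1.02, 1.59 and 0.933 RPKM in siNC replicates 1 to 3 and 1.17, 1.49 and 1.18 RPKM in siQk replicates 1 to 3. The siQk values again lay inside the siNC range, and the log2 fold change was 0.10 (SE 0.25, 95% interval -0.45 to 0.69).

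**Figure D2:**
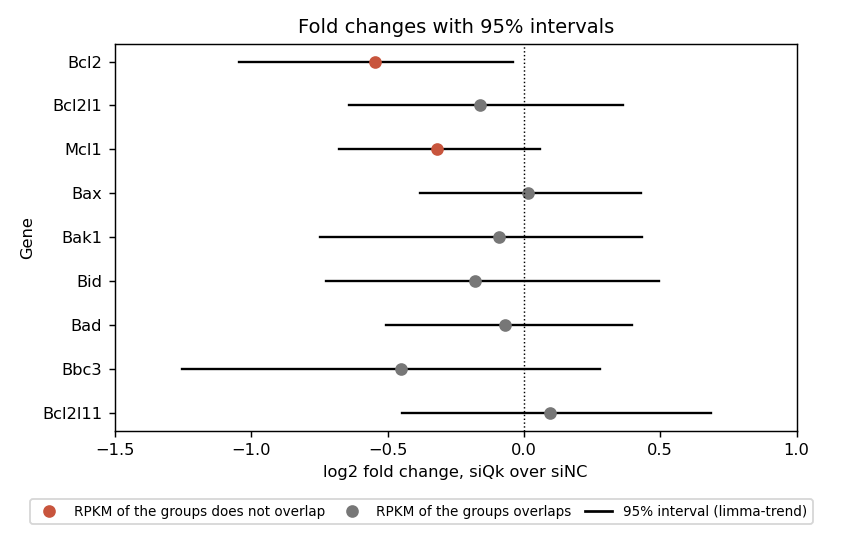
Log2 fold change of siQk over siNC for the 9 members tested (points) with 95% intervals from limma-trend (lines), red where the RPKM values of the groups do not overlap. Only the interval of Bcl2, from -1.04 to -0.04, lies wholly to one side of 0, before adjustment over 12665 genes.

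The intervals show what size of difference the libraries leave possible. In linear terms they run from 0.485 to 0.972 times siNC for Bcl2, from 0.625 to 1.04 for Mcl1, and from 0.420 to 1.21 for Bbc3, the widest on the log2 scale. The SE of a member was 0.16 (Mcl1) to 0.34 (Bbc3), beside a median of 0.217 over all genes tested.

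Differences between control libraries were as large as those between the groups for several members. Bcl2l1, Bax, Bid, Bad and Bbc3 were highest in siNC replicate 1 and lowest in siNC replicate 3, an order that 24.8% of all genes tested had. On the log2 CPM scale siNC replicate 1 exceeded siNC replicate 3 by 1.08 for Bid, 0.87 for Bbc3, 0.68 for Bcl2l1, 0.53 for Bad and 0.50 for Bax. Bcl2 and Mcl1 went the other way, with differences of -0.45 and -0.27. The same difference moved with base composition over all genes, from a median of -0.39 in the quartile of genes with the lowest transcript GC to 0.48 in the quartile with the highest. Transcript GC was 65.2% for Bbc3, 59.2% for Bax, 57.1% for Bad, 55.9% for Bcl2l1 and 50.4% for Bid, and 46.3% for Bcl2 and 48.7% for Mcl1. Not every member followed the trend. Bid, whose GC lies in the second lowest quartile with a median difference of -0.16, had the largest positive difference of the members. Bak1, at 57.1% like Bad, had a difference between those libraries of -0.09, and Bcl2l11, at 48.0%, one of 0.07. With the trend on GC removed from each library, a step added once the data had been seen, the log2 fold change of siQk over siNC was -0.56 for Bcl2, -0.31 for Mcl1 and -0.42 for Bbc3, and no member was called. The part of base composition in each library's values was not tested further.

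**Figure D3:**
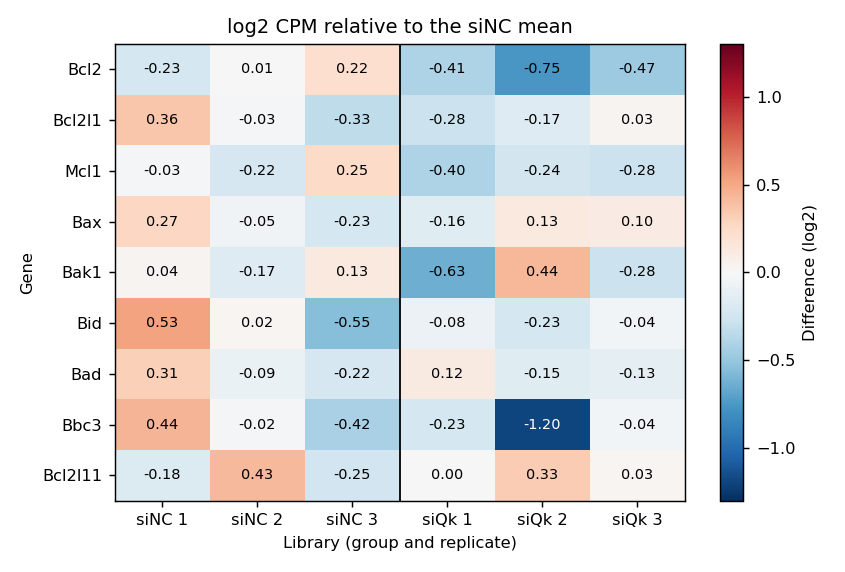
Difference in log2 CPM from the siNC mean for each member in each library, red above and blue below the mean. The darkest cell is Bbc3 in siQk replicate 2, and siNC replicates 1 and 3 lie on opposite sides of the siNC mean for 7 members, all but Bak1 and Bcl2l11.

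Exons of 5 members overlap those of another gene in the GENCODE annotation. The library kit keeps no strand, so reads from shared bases cannot be told apart. The share of annotated exon bases involved was 25.5% for Bak1 (with Ggnbp1), 20.5% for Bad (Gpr137), 17.7% for Bid (Bcl2l13), 12.2% for Bax (Gm45808) and 6.09% for Bcl2 (the antisense gene D630008O14Rik). The authors counted over shorter exon models for these members, for Bid 1891 bases against 3550 annotated. Whether the counted models hold the shared bases is not known, and the part of the overlap in the values above was not tested. Gpr137 had a mean of 15.3 RPKM in siNC and 17.2 RPKM in siQk, and Bcl2l13 had 6.97 and 5.89 RPKM, levels near those of Bad and Bid, while Ggnbp1 stayed below 1 RPKM. Bcl2l1, Mcl1, Bbc3 and Bcl2l11 had no such overlap.

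Levels were also summed by role within each library, as descriptions with no test. The pro-survival sum was 42.2, 37.6 and 45.7 RPKM in siNC replicates 1 to 3 and 32.3, 35.6 and 35.3 RPKM in siQk replicates 1 to 3. The groups did not overlap, and the siQk mean was 82.2% of the siNC mean. Mcl1 made up 80.9% to 86.5% of this sum and Bcl2 3.89% to 6.26%, so the sum follows Mcl1. The effector sum was 90.9, 75.6 and 67.6 RPKM in siNC replicates 1 to 3 and 65.9, 91.2 and 79.5 RPKM in siQk replicates 1 to 3, with overlapping groups. The BH3-only sum overlapped as well, at 25.7 to 44.1 RPKM in siNC and 27.7 to 34.2 RPKM in siQk.

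The ratio of Bax to Bcl2, often quoted as a measure of readiness for apoptosis, came to 37.2, 25.4 and 19.3 for siNC replicates 1 to 3, against 31.3, 48.7 and 39.1 for siQk replicates 1 to 3. Its means were 27.3 ± 9.12 and 39.7 ± 8.70 (SD, n = 3 each), and siQk replicate 1 lay below siNC replicate 1. The ratio of Bax to Mcl1 was 1.25 to 2.14 in siNC and 2.05 to 2.27 in siQk. Effectors over pro-survival genes gave 1.48 to 2.15 in siNC and 2.04 to 2.56 in siQk, so all 3 ratios overlapped between groups. The overlap came from siNC replicate 1. The other siNC libraries were at most 25.4, 1.96 and 2.01 for the 3 ratios in this order, below every siQk library. That split was made once the data had been seen, and siNC replicate 3, not 1, was the control apart on the principal components. Transcript GC is 59.2% for Bax and 46.3% for Bcl2, and the part of base composition in their ratio was not tested. The differences of the means, 12.4, 0.407 and 0.405 over all libraries, were 8.35, 0.141 and 0.204 with siNC replicate 3 left out and 7.88, 0.378 and 0.267 with siQk replicate 2 left out.

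**Figure D4:**
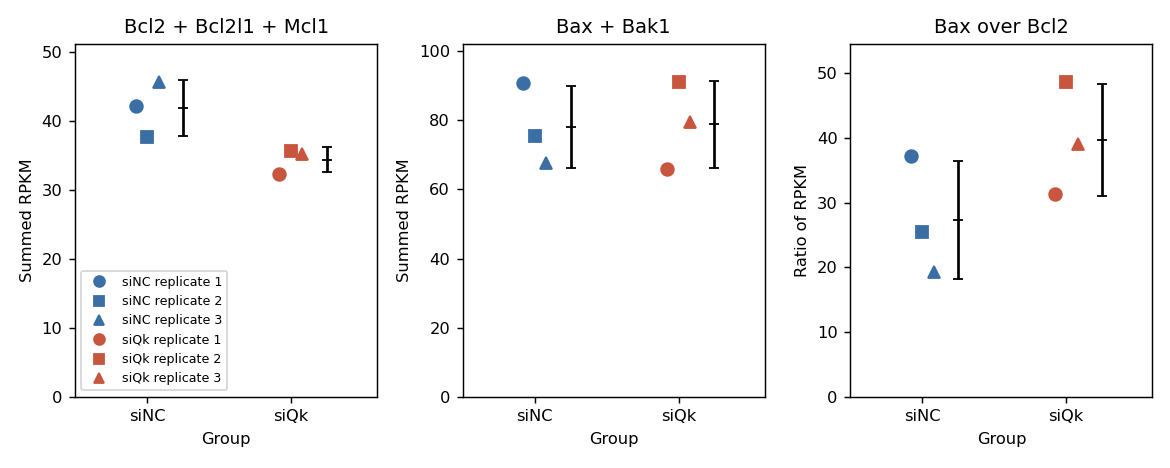
Summed RPKM of the pro-survival genes and of the effectors, and the ratio of Bax to Bcl2 RPKM, 1 point per library with the mean and SD of each group beside the points, axes from 0. The siQk points lie below all siNC points for the pro-survival sum (32.3 to 35.6 against 37.6 to 45.7 RPKM) and overlap them for the other two.

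Bbc3 had the widest range of log2 CPM over the 6 libraries, 1.64. The 3 genes whose centred pattern lay nearest to it, by root mean square difference over these 6 libraries, were Cdh24 (0.109), Hook2 (0.113) and Ctf1 (0.114). Each had its lowest value in siQk replicate 2 and its highest in siNC replicate 1.

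The wider pathway was followed in 4 lists, and 0 of the 91 listed genes tested (of 102) were called, against 0.0079% of all genes, with 2 at an unadjusted p under 0.05, against 2.89% of all genes. Among other Bcl2 relatives 12 of 17 genes were tested, 6 with fold changes below 0 and 6 above, with a median of -0.06. It became -0.14 when siQk replicate 3 was left out, and turned to 0.02 and 0.03 when siNC replicate 1 or 3 was. Hrk, a BH3-only gene of neurons, had 4.35, 4.64 and 4.04 RPKM in siNC replicates 1 to 3 and 2.96, 1.08 and 3.36 RPKM in siQk replicates 1 to 3. Every siQk library was below every siNC library, most of all replicate 2. The log2 fold change of Hrk was -0.84 (SE 0.38, unadjusted p = 0.0425 by edgeR) and -0.48 without siQk replicate 2. Bcl2l13, a mitochondrial relative whose exons overlap those of Bid, was the other relative without overlap between groups, at 6.33, 8.12 and 6.44 RPKM in siNC replicates 1 to 3 and 5.82, 5.99 and 5.85 RPKM in siQk replicates 1 to 3 (log2 fold change -0.27, and -0.17 with siNC replicate 2 left out).

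The list named for the apoptosome, the caspases and their inhibitors had 25 of 26 genes tested. It also held the mitochondrial genes Vdac1, Vdac2, Vdac3, Mtch2, Endog and Aifm1, as well as Dffa and Dffb. The fold change was above 0 for 17 and below 0 for 8, with a median of 0.14 beside 0.0034 over all genes. Leaving out siNC replicate 1 brought that median to 0.089, leaving out siNC replicate 2 to 0.085 and leaving out siQk replicate 2 to 0.079, and it was 0.07 without siNC replicate 3 and siQk replicate 2 together. Apaf1, the scaffold of the apoptosome, had 5.54, 7.33 and 4.91 RPKM in siNC replicates 1 to 3 and 5.96, 10.6 and 7.15 RPKM in siQk replicates 1 to 3 (log2 fold change 0.40, unadjusted p = 0.125 by edgeR). The groups overlapped, siQk replicate 2 was the highest library, and without it the log2 fold change was 0.13.

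The p53 pathway list, which bears on Bbc3, had 22 of 26 genes tested, 17 with fold changes below 0 and 5 above, and a median of -0.15. That median was -0.08 without siNC replicate 3 and 0.0063 without siNC replicate 3 and siQk replicate 2 together. Ccng1, encoding cyclin G1, had 10.9, 12.99 and 18.7 RPKM in siNC replicates 1 to 3 and 17.5, 30.04 and 18.7 RPKM in siQk replicates 1 to 3 (log2 fold change 0.60, unadjusted p = 0.0504 by edgeR). The groups overlapped, and the log2 fold change of Ccng1 was 0.32 without siQk replicate 2 and 0.89 without siNC replicate 3. Rrm2b, a p53-inducible subunit of ribonucleotide reductase, went the other way (log2 fold change -0.61). Its 8.34, 7.998 and 15.3 RPKM in siNC replicates 1 to 3 and 7.73, 4.80 and 8.67 RPKM in siQk replicates 1 to 3 overlapped, and without siNC replicate 3 and siQk replicate 2 the fold change was 0.011.

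The last list held proteins that bind the members or govern their turnover, 32 of 33 of them tested, 16 with fold changes on either side of 0. Ywhag and Ywhah encode 14-3-3 proteins, the class that retains phosphorylated Bad in the cytosol. Ywhag had 124, 81.4 and 93.5 RPKM in siNC replicates 1 to 3 and 74.3, 66.1 and 79.6 RPKM in siQk replicates 1 to 3 (log2 fold change -0.47, unadjusted p = 0.0297 by edgeR), and without siNC replicate 1 its fold change was -0.29 (unadjusted p = 0.124 by edgeR). Ywhah had 174, 203 and 190 RPKM in siNC replicates 1 to 3 and 159, 141 and 167 RPKM in siQk replicates 1 to 3 (log2 fold change -0.31, unadjusted p = 0.0652 by edgeR). Both were lower in every siQk library than in any siNC library, as 3.49% of all genes tested were, and neither was called. Over the 4 lists, 6 genes had all siQk libraries below all siNC libraries and 1 had them all above, of 91 tested, against 3.49% and 5.35% of all genes. Besides the genes already given these were Ddit4 and Perp on the lower side and Mtch2 on the higher, named after their values were seen.

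**Figure D5:**
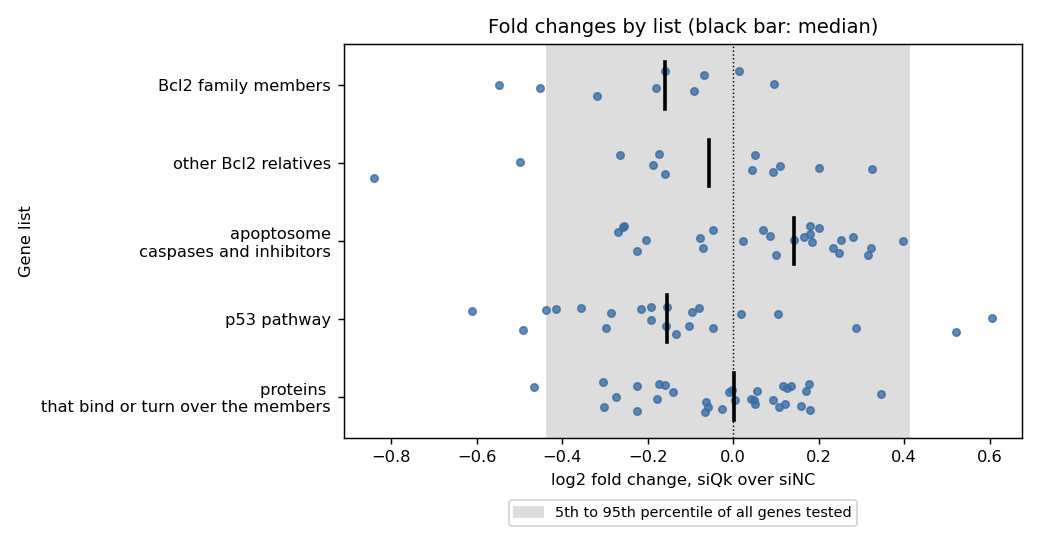
Log2 fold change of siQk over siNC for the Bcl2 family members and 4 further lists, 1 point per gene tested, with the list median as a black bar and the 5th to 95th percentile of all genes tested (-0.43 to 0.41) in grey. The medians run from -0.16 for the members to 0.14 for the apoptosome and caspase list, where the member median is 0.00061 with siNC replicate 1 left out, and the grey band describes single genes, not medians.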

How the data were processed

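Per the labels and the study's methods, the authors selected poly-A RNA, made TruSeq version 2 libraries, which keep no strand, aligned paired reads by OLego and obtained gene counts by Quantas. The submitters' processing notes name mouse build mm10. The deposited files hold, per gene, the authors' expected count, the exon length and RPKM, which carries no scaling beyond length and library total. Values cover all isoforms together.

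Expected counts were rounded to whole numbers. Genes were kept where mean log2 CPM was above 0 after TMM scaling (12665 of 23038). The test was edgeR 4.0.16 quasi-likelihood in R 4.3.3, 3 siQk against 3 siNC libraries, called at p under 0.01 and Benjamini-Hochberg adjusted p under 0.1 over all genes kept, the study's cutoffs. SE and 95% intervals came from limma 3.58.1 (limma-trend, prior count 2). They belong to limma's own estimates, which can differ from the edgeR fold changes printed beside them. For Bak1 limma-trend gave -0.16 against -0.09 by edgeR, and for Hrk -0.999 against -0.84. RPKM of single members was compared by exact permutation, two-sided, over all 20 arrangements of 3 against 3 (smallest p 0.1). The code was tested on simulated data. Replicate numbers were not taken to pair libraries (same-number residual correlations 0.213, 0.018 and -0.170).

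The members and lists were chosen with earlier results of these data known. Named genes are the members, Qk, the 2 genes of smallest p per list, and the 3 genes nearest in pattern to the member of widest range. Alternatives were DESeq2 1.42.0, the edgeR exact test, limma-trend, other scalings and filters, a replicate block and leaving out each library. Added later were a fit without siNC replicate 3 and siQk replicate 2, and removal of a GC trend (loess, span 0.5). Transcripts and positions are from GENCODE M21 (GRCm38). No location or sequence is given for Pmaip1. A gene that the naming rule picked and 1 marker are not reported here.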

Additional observations from a re-analysis of the deposited data

How the results depend on the processing

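No Bcl2 family member and no gene of the 4 lists was called under any of the 16 alternatives, where the lowest adjusted p of a member was 0.792. Qk kept its direction, and without siNC replicate 1 it was -3.09 with an adjusted p of 0.125 (range -3.19 to -2.67 on leaving out each library). Over all genes 1 was called in the fit reported, 19 by DESeq2, 5 by the edgeR exact test and 0 without siNC replicate 1. With the replicate number as a block, the log2 fold change was -0.54 for Bcl2, -0.31 for Mcl1 and -0.49 for Bbc3, with 0 members and 1 gene called, and the numbers were not taken to pair libraries.

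On leaving out each library in turn, Bcl2 (-0.65 to -0.43), Mcl1 (-0.43 to -0.19) and Bbc3 (-0.68 to -0.18) stayed below 0. The sign changed for Bcl2l1 (-0.31 to 0.038), Bid (-0.41 to 0.12) and Bad (-0.17 to 0.10) without siNC replicate 1, and for Bak1 (-0.46 to 0.12) without siQk replicate 1. It changed for Bcl2l11 (-0.027 to 0.34) without siNC replicate 3 or siQk replicate 2, and for Bax (-0.093 to 0.16) without any one of siNC replicates 2 and 3 and siQk replicates 2 and 3. Without siNC replicate 3 and siQk replicate 2 together, chosen after seeing the data, Bax was -0.15, Bcl2l11 -0.14 and Rrm2b 0.011. The cause was not tested. The direction of the members whose sign changed is not established here.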
